A study of Mus musculus with 19 samples.

Results

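Binding of YAP and TEAD was examined at the cytochrome P450 genes of the mouse liver, taken as the protein-coding genes whose symbol starts with Cyp, a number and a letter in the GENCODE annotation of mm9 (NCBIM37). This rule found 97 of the 22380 protein-coding genes, and the other 22283 served as the background. Of the members, 2 (Cyp2d37-ps and Cyp2j7-ps) carry a pseudogene-style symbol but are annotated as protein-coding, and Cyp51, the sterol 14-demethylase, has no letter after its number and is given separately. A gene was counted as bound when a peak overlapped its body or the 10 kb on either side, called its window below, and as bound at the promoter when a peak touched the stretch reaching 2000 bp upstream and 1000 bp into the gene from any start in the annotation.

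The libraries came from whole livers of C57BL/6 mice. All groups carried the ROSA26-rtTA-IRES-EGFP allele, a doxycycline-dependent activator, and according to the study's methods it was switched on in hepatocytes by Cre under the albumin promoter. The tetYAP mice also carried a doxycycline-driven YAP S127A, which escapes an inhibitory phosphorylation, and received doxycycline food for 3 days (3 d) or 7 days (7 d). Mice labelled WT, without the transgene, received it for 7 days. YAP was precipitated with a monoclonal antibody to YAP1 after crosslinking with DSG and formaldehyde, and TEAD after formaldehyde alone with an antibody raised to TEAD4 that the methods describe as also recognising other TEAD proteins. Each group had 3 samples, or 4 for TEAD at 7 d, which the authors merged into 1 library a group before peaks were called, so no spread between animals could be computed and no difference between lists or groups of genes carries a test. The merged libraries ranged from 34260362 to 55032002 tags. For YAP the lists numbered 156 peaks (WT), 110 (3 d) and 1478 (7 d), and for TEAD 5695, 36446 and 38984 in the same order, which is kept below wherever 3 values are given. All signals are binding, and no transcript level was measured.

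Cytochrome P450 enzymes are haem proteins that insert an oxygen atom into their substrates with electrons passed on by a reductase or a ferredoxin. In the liver, families 1 to 3 oxidise drugs and other foreign compounds, family 4 acts on fatty acids, and others make bile acids from cholesterol or break down retinoic acid. TEAD proteins bind a short DNA element, and YAP, which does not bind DNA by itself, is held on chromatin by them.

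The 7 sites below are examples of YAP-bound and of strong TEAD sites at P450 genes. The strong TEAD sites are a selection, and stronger ones such as that in an intron of Cyp2u1 are not shown. Each is the plus strand of mm9 over 150 bp, 75 bp before the summit and the rest from it on, with the TEAD core (GGAATG, or CATTCC on the other strand) in capitals. The first 3 are the sites with a YAP peak, at the promoters of Cyp2r1 (chr7:121707132-121707281) and Cyp2a12 (chr7:27813940-27814089) and 3' of Cyp2j5 (chr4:96288702-96288851). The others are strong TEAD sites at 7 d: 3' of Cyp26a1 (chr19:37777075-37777224), in an intron of Cyp39a1 (chr17:43808969-43809118), and at the promoters of Cyp4f14 (chr17:33054075-33054224) and Cyp3a11 (chr5:146692944-146693093). The windows are centred on TEAD summits at 7 d, except for Cyp2j5, where the YAP summit was used.
Cyp2r1: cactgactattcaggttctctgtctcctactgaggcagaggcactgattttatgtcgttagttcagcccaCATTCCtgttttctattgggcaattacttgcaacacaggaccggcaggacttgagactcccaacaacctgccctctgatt
Cyp2a12: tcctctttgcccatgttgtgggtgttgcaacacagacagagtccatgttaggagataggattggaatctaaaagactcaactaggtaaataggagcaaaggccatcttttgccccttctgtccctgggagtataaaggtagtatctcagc
Cyp2j5: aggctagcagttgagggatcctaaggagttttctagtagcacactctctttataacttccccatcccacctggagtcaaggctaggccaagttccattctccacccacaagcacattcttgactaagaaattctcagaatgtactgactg
Cyp26a1: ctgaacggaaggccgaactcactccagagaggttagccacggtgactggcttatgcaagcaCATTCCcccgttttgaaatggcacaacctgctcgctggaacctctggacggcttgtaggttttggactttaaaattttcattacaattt
Cyp39a1: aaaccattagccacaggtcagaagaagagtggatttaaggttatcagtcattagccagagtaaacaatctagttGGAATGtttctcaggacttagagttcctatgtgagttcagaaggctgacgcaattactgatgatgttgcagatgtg
Cyp4f14: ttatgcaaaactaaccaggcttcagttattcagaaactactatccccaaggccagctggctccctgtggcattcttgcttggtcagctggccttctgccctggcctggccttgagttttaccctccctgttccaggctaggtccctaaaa
Cyp3a11: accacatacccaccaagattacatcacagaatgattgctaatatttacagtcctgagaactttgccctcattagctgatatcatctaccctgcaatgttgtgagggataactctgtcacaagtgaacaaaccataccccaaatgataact
The core stands within these windows at Cyp2r1, Cyp26a1 and Cyp39a1, once in each. The other 4 windows hold no copy of these letters. Among the 10 strongest P450 peaks at 7 d, 3 held the core in the 300 bp around the summit.

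YAP peaks were rare at P450 genes in every condition. No window held a YAP peak in WT livers or at 3 d, and 3 counts in 97 genes, the limit that a count of 0 allows, would be 3.09%. Among the other genes, 0.117% had one in WT livers and 0.162% at 3 d. At 7 d, 3 of the 97 windows held a YAP peak, which is 3.09% (95% Wilson interval, 1.06 to 8.70%), against 4.80% of the other genes. At promoters, YAP peaks were found at 0 P450 genes in WT livers and at 3 d, against 0.0359% and 0.0718% of the other genes. At 7 d they were found at 2 genes, or 2.06% (0.567 to 7.21%), against 1.03% of the other genes. These intervals cover counting error over genes only, and every background share lay within the interval of the P450 share, which for a count of 0 reached up to 3.81%.

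The strongest of the 3 YAP peaks lay at the promoter of Cyp2r1, the microsomal vitamin D 25-hydroxylase (chr7:121706960-121707390, summit 698 bp upstream of the start). Its fold enrichment, the ratio of the pileup of fragments to the local background, was 9.17, and it ranked 146 of 1478 by p-value. Cyp2a12, a steroid-hydroxylating member of the drug-metabolising family 2, had a YAP peak 165 bp upstream of its start (chr7:27813839-27814122, 6.33-fold, rank 620). The third YAP peak lay in the 3' flank of Cyp2j5, an enzyme that epoxidises arachidonic acid (chr4:96288711-96288968, 4.58-fold, rank 1306). All 3 overlapped a TEAD peak at 3 d and at 7 d, and of them only the Cyp2r1 site was also a TEAD peak in WT livers.

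The TEAD lists after induction are several times longer than the WT list, and they marked more P450 genes and more of all other genes. In WT livers 15 windows held a TEAD peak, or 15.5% (9.60 to 24%), against 20.2% of the other genes. At 3 d there were 62, or 63.9% (54.0 to 72.8%), against 58.8%. At 7 d there were 71, or 73.2% (63.6 to 81.0%), against 59.6%. The background rose with the P450 genes, and at 7 d the background lay below the interval of the P450 share. The P450 share minus that of the other genes at 7 d was 14.3 percentage points with peaks of −log10 p-value of at least 10, 12.8 points with peaks of at least 5-fold, 1.55 points over gene bodies alone and -5.76 points with only the strongest 5695 peaks of the list. When the later lists were reduced in this way to the number of peaks in the WT list, 22 P450 genes had a peak at 3 d (22.7%, 15.5 to 32.0%, against 19.7% of the other genes) and 12 at 7 d (12.4%, 7.22 to 20.4%, against 18.1%), beside the 15 of the WT list. At equal list size the number of P450 genes was thus not higher at 7 d than in WT livers. At promoters the WT list marked 7 P450 genes (7.22%, 3.54 to 14.2%), the 3 d list 38 (39.2%, 30.1 to 49.1%) and the 7 d list 41 (42.3%, 32.9 to 52.2%), while the other genes gave 8.73%, 38.8% and 37.6%. All 3 promoter backgrounds lay within the P450 intervals.

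**Figure D1:**
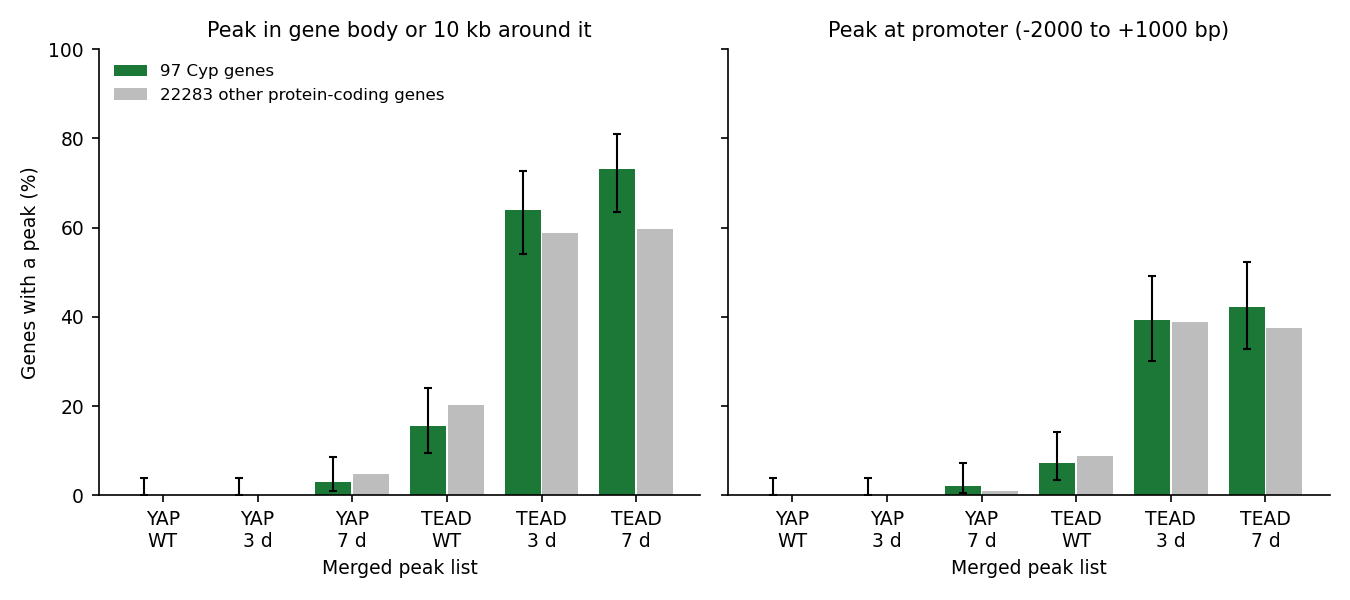
Share of genes with a peak (%) in each of the 6 merged peak lists, for the 97 P450 genes (green, with 95% Wilson intervals) and the 22283 other protein-coding genes (grey), in the window (left) and at the promoter (right). TEAD bars climb from 15.5% in WT livers to 73.2% at 7 d in P450 windows, while the YAP bars stay at or below 3.09%.

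Windows of P450 genes were longer than those of other genes (median 41.8 kb against 35.4 kb) and neighbouring members share peaks, so TEAD peaks were also counted per length of merged windows. The 97 windows merged into 81 loci, and 12, 53 and 60 of these held a TEAD peak. In WT livers the loci held 0.345 TEAD summits per 100 kb (95% Poisson interval, 0.193 to 0.569), against 0.348 in merged windows of the other genes. At 3 d the density was 3.49 (2.96 to 4.09) against 2.26, a ratio of 1.54 (1.31 to 1.81). At 7 d it was 3.65 (3.11 to 4.27) against 2.37, a ratio of 1.54 (1.31 to 1.80). Over merged gene bodies alone the ratio was 0.541, 1.11 and 1.18, and with only the strongest 5695 peaks of each list it was 1.47 at 3 d and 0.907 at 7 d.

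As a group, P450 peaks were close to the middle of their lists in strength. Their median fold enrichment was 5.18, 5.58 and 6.83, against 5.05, 5.44 and 7.30 over each whole list. At 7 d the strongest 25% of the list held 32 of the 159 P450 peaks (20.1%, 14.6 to 27%) and the weakest 25% held 47 (29.6%, 23.0 to 37.1%). At 3 d the corresponding numbers were 40 and 34 of 153 peaks. The caller extended tags to 400 bp for the WT list and to 207 and 206 bp for the others, and set all against 1 control library, so values are read within a list and are only set side by side across lists.

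In the full lists, all 15 genes with a TEAD peak in WT livers also had one at 3 d and at 7 d, as did 4449 of the 4498 other genes with a WT peak (98.9%). These are 15.5% of the P450 genes and 20% of the other genes. A further 44 genes had one at 3 d and 7 d but not in WT livers (45.4%, 35.8 to 55.3%, against 34.9% of the other genes). The 3 d list alone marked 3 genes (3.09%, against 3.86%), namely Cyp2ab1 and the fatty acid hydroxylase genes Cyp4a31 and Cyp4a32. The 7 d list alone marked 12 genes (12.4%, 7.22 to 20.4%, against 4.65%), of which 5 were Cyp2c genes. No TEAD peak was listed for 23 genes (23.7%, 16.4 to 33.1%, against 36.4%), and these had no YAP peak either. The 12 genes marked at 7 d alone had 1 or 2 peaks each, whose strongest ranged from 4.77-fold to 10.4-fold, and with equal numbers of strongest peaks that class held 1 gene and the class of 3 d alone 6.

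At the level of single sites, 14 of the 15 P450 peaks of WT livers overlapped a peak at 3 d, and 14 a peak at 7 d (93.3%, 70.2 to 98.8%, in both cases), against 98.4% and 95.4% of the whole WT list. The exception lay upstream of Cyp46a1, the brain cholesterol 24-hydroxylase, where the WT peak (3.12-fold) lay 1008 bp upstream of the start and those of the later lists lay 282 and 314 bp upstream. Of the 153 P450 peaks at 3 d, 115 (75.2%) overlapped a peak at 7 d, and 115 of the 159 at 7 d (72.3%) overlapped one at 3 d. Over the whole lists these shares were 75.9% and 71.2%.

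The flanks, which include the upstream part of promoters, held the summits of 11 of 15, 97 of 153 and 96 of 159 peaks, and introns those of 4, 46 and 53. Counted over merged loci, 73.3%, 63.2% and 60.4% of P450 summits lay outside the gene bodies, against 34.0%, 30.9% and 30% for the other genes, and the flanks made up 41.3% of the length of P450 loci and 20.7% of that of the others. Promoters of P450 genes held 7, 49 and 54 of them. Promoters of other protein-coding genes overlapped 0, 7 and 5, so few calls came from a neighbouring gene's start. A single window held at most 2, 6 and 8 TEAD peaks, the last at Cyp39a1.

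**Figure D2:**
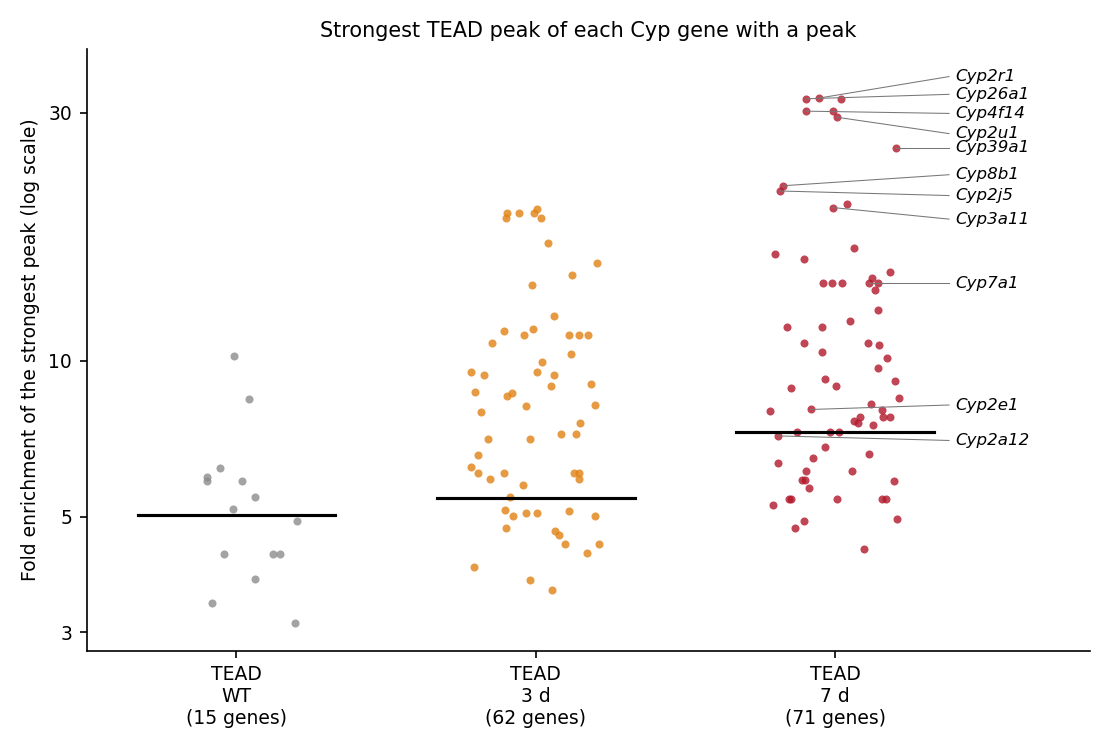
Fold enrichment (log scale) of the strongest TEAD peak in the window of each P450 gene that had one, in WT livers (15 genes), at 3 d (62) and at 7 d (71), with horizontal positions spread at random. Black lines mark the median of all peaks in each list (5.05, 5.44 and 7.30), and the genes with the highest values at 7 d, up to 32.0 for Cyp2r1, carry their symbols beside a few others named in the text.

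The vitamin D and retinoid enzymes included the P450 peaks of highest fold enrichment in the 7 d list and also genes with no peak. Cyp2r1 (chr7:121693680-121706486) had a promoter TEAD peak of 6.20-fold, 19.2-fold and 32.0-fold, and at 7 d it ranked 1208 of 38984. The TEAD summit at 7 d lay 721 bp upstream of the start, close to that of YAP, and the core in capitals above stood 2 bp from it. Cyp26a1 and Cyp26c1, which clear retinoic acid, are neighbours on chromosome 19 and share the sites between and beside them. The site 3' of Cyp26a1 had a fold enrichment of 5.58, 18.8 and 31.9, and the site upstream of it 5.85, 15.8 and 21. In contrast Cyp24a1, which degrades active vitamin D, Cyp27b1, which makes it, and Cyp26b1 had no peak in any list. Thus 3 of the 6 genes of this group were bound in each TEAD list, against 20.2%, 58.8% and 59.6% of the other genes.

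Each of the 6 bile acid and sterol genes had a TEAD peak at 3 d and at 7 d, and 2 had one in WT livers, against background shares of 58.8%, 59.6% and 20.2%. The group was formed by gene family, and with 6 genes chosen in this way the count is a description that depends on the grouping. Cyp7a1 (chr4:6192759-6202780), the rate-limiting enzyme of classical bile acid synthesis, had 5 TEAD peaks at 3 d and 3 at 7 d. One of those at 3 d lay at the promoter (chr4:6202714-6203076, 7.52-fold, 161 bp upstream of the start), and no 7 d peak overlapped it. Its strongest site lay in the 3' flank, at 11.2-fold at 3 d and 14.1-fold at 7 d. Cyp8b1 (chr9:121823474-121825423), which makes cholic acid, had 4 TEAD peaks at 3 d and 6 at 7 d. The promoter peak of Cyp8b1 was 9.26-fold at 3 d and 14.6-fold at 7 d, and a stronger one in its 3' flank, within the body of Ccbp2, was 9.38-fold and 21.7-fold. Thus Cyp7a1 lost its listed promoter site between the 3 d and the 7 d list, while that of Cyp8b1 was listed in both.

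Cyp27a1, the mitochondrial sterol 27-hydroxylase of the alternative bile acid pathway, had 5 TEAD peaks at 3 d and 5 at 7 d, the strongest in an intron at 8.20-fold and 9.15-fold. Cyp7b1, the oxysterol 7-alpha-hydroxylase, had 5 and 3, and none of these lay at its promoter. Cyp39a1 (chr17:43804374-43888380), which acts on 24-hydroxycholesterol, had 1, 6 and 8 TEAD peaks. An intron held the strongest, at 4.92-fold, 15.4-fold and 25.7-fold, while its promoter peaks (5.91-fold at most at 3 d and 6.13-fold at 7 d) also overlapped the promoter of the neighbouring Slc25a27. Across this group, promoter peaks marked 1, 5 and 4 genes. Cyp51, the enzyme of cholesterol synthesis outside the rule, had 0, 4 and 3 TEAD peaks, with 1 at the promoter in both of the later lists.

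Among the 17 genes of family 4, which hydroxylate fatty acids and eicosanoids, 3, 12 and 12 had a TEAD peak. These are 17.6%, 70.6% and 70.6% of windows, against 20.2%, 58.8% and 59.6% of the other genes. Cyp4f14, a leukotriene and fatty acid omega-hydroxylase, had a promoter peak in all 3 lists (5.98-fold, 19.2-fold and 30.2-fold, chr17:33053823-33054492 at 7 d) although the printed window holds no core. The neighbouring Cyp4f13 had the strongest P450 peak of WT livers in an intron, at 10.2-fold and rank 337 of 5695, with 13.6-fold and 16.0-fold at 3 d and 7 d. Cyp4a14, a target of PPAR-alpha in liver, had a promoter peak of 5.18-fold, 14.0-fold and 14.1-fold. No peak was listed for Cyp4f16, Cyp4f18 and Cyp4a12b.

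The 57 drug-metabolising genes of families 1 to 3 were bound by TEAD in 7, 35 and 43 cases, with 3, 22 and 24 at promoters. These are 12.3%, 61.4% and 75.4% of windows, against 20.2%, 58.8% and 59.6% of the other genes, and 5.26%, 38.6% and 42.1% of promoters, against 8.73%, 38.8% and 37.6%. Cyp3a11, the main xenobiotic-inducible Cyp3a gene of mouse liver, had no WT peak and 1 site after induction, 1446 bp upstream of its start at 3 d (11.5-fold) and 1479 bp upstream at 7 d (19.7-fold). Cyp2e1, which oxidises ethanol, had a promoter peak of 3.41-fold, 8.67-fold and 8.05-fold. Cyp1a2 had a promoter peak of 9.52-fold at 3 d and 8.01-fold at 7 d, while its neighbour Cyp1a1, the classical target of the aryl hydrocarbon receptor, had only peaks away from the promoter (5.15-fold and 4.90-fold at most). Cyp2b10, the classical target of the receptor CAR, had 1 peak at 3 d and 4 at 7 d, none at the promoter. Promoter peaks in WT livers were also listed for Cyp2d22 (4.25-fold) and Cyp2c50 (3.80-fold), and Cyp2c44 had an intronic peak in all 3 lists (8.43-fold, 16.8-fold and 20.0-fold). Of these well-known inducible genes, Cyp3a11 thus carried a promoter peak after induction and Cyp1a1 and Cyp2b10 did not.

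Cyp2c, Cyp2d and Cyp2j are the largest clusters of family 2. Of the 15 Cyp2c genes, which hydroxylate drugs and arachidonic acid, 3, 8 and 13 had a TEAD peak. These are 20.0%, 53.3% and 86.7%, against 20.2%, 58.8% and 59.6% of the other protein-coding genes. The 14 of them that lie side by side on chromosome 19 held 2, 14 and 21 TEAD peaks. These shares and counts do not take window length into account, and the merged windows of Cyp2c55, Cyp2c65 and Cyp2c66 alone span 200 kb. At 7 d the merged loci of this cluster held from 0 (Cyp2c29) to 5.21 peaks per 100 kb (Cyp2c54 with Cyp2c50). The other genes had 2.37 summits per 100 kb. The genes marked at 7 d alone were Cyp2c55, Cyp2c65, Cyp2c68, Cyp2c69 and Cyp2c70, and Cyp2c29 and Cyp2c66 had no peak in any list. Of the 8 Cyp2j genes on chromosome 4, 0, 2 and 3 were bound, with 0, 5 and 7 peaks. These lay at Cyp2j5, Cyp2j6 and Cyp2j9, at 1 end of the cluster, and Cyp2j8, Cyp2j11, Cyp2j12, Cyp2j13 and Cyp2j7-ps had none. The site 3' of Cyp2j5 that YAP occupied at 7 d was a TEAD peak of 5.98-fold at 3 d and 21.2-fold at 7 d.

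**Figure D3:**
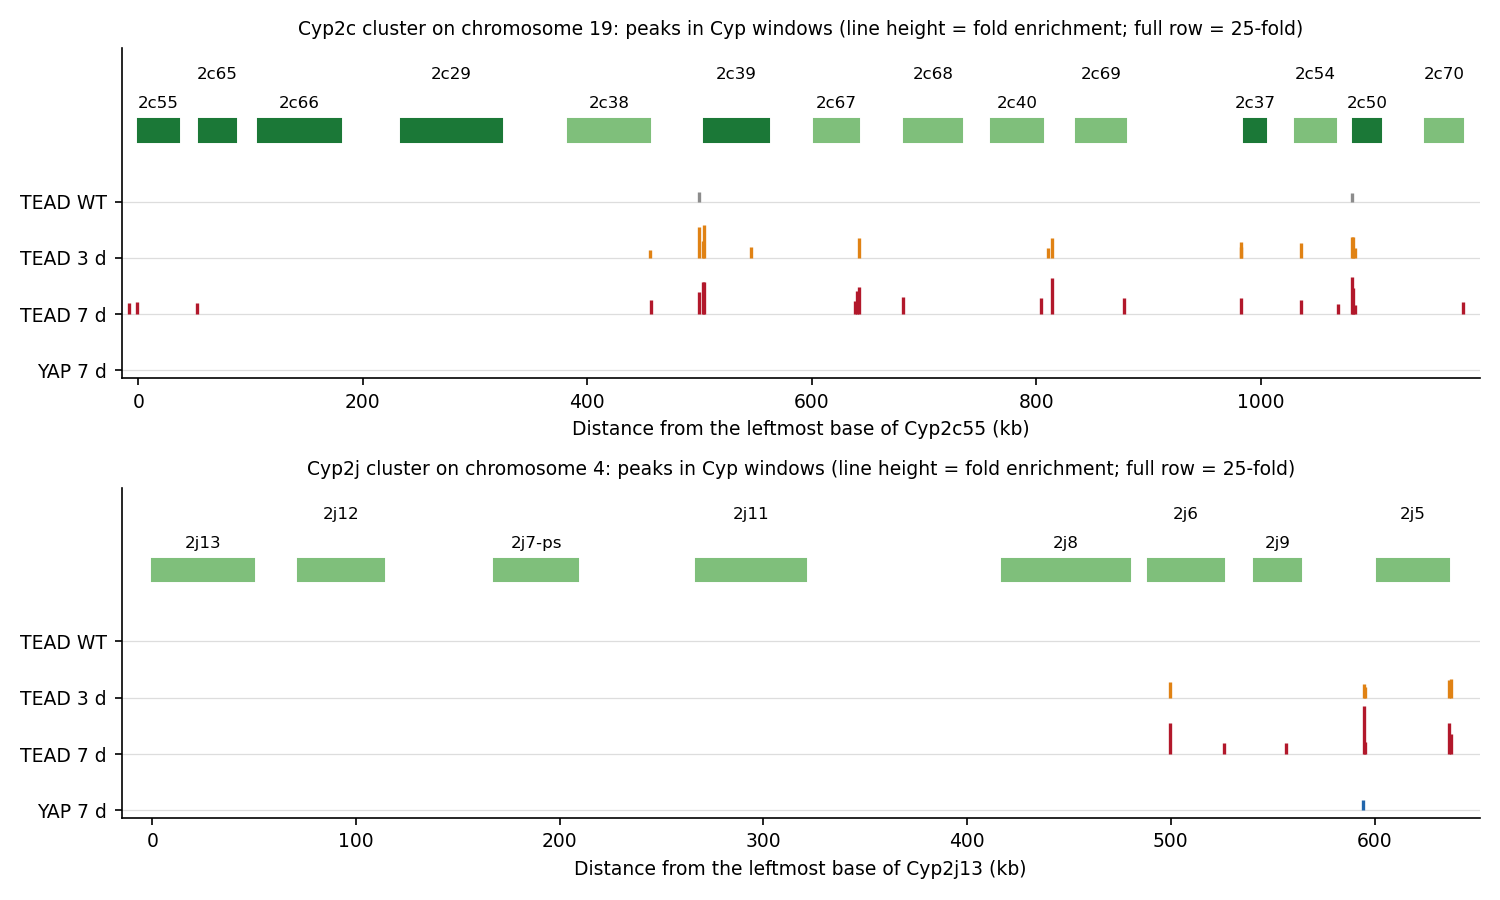
Peaks in the Cyp2c (top) and Cyp2j (bottom) clusters by distance (kb) from the leftmost base of the first gene drawn. Boxes are gene bodies (dark green, plus strand, light green, minus strand). Lines are peak summits with their height in fold enrichment for the 3 TEAD lists and YAP at 7 d. The Cyp2c windows hold 2, 14 and 21 TEAD peaks and the Cyp2j windows 0, 5 and 7. The clusters differ in length, and these counts are not scaled by it.

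The other subfamilies of 4 or more genes were counted in the same way. Of the 9 Cyp2d genes, 2, 7 and 8 had a TEAD peak, and of the 9 Cyp3a genes 1, 6 and 6. The 8 Cyp4f genes gave 2, 6 and 6, the 6 Cyp4a genes 1, 4 and 3, the 5 Cyp2b genes 0, 3 and 4, and the 4 Cyp2a genes 0, 2 and 3. Of the other protein-coding genes, 20.2%, 58.8% and 59.6% had a TEAD peak in their window, so a rise from the WT list was not particular to these subfamilies. With these small numbers of neighbouring genes, the order of the subfamilies is a description of these lists.

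In the Cyp2d cluster on chromosome 15, which metabolises many basic drugs, the promoter peak of Cyp2d22 (4.25-fold, 11.2-fold and 14.1-fold) also lay within the window of Cyp2d11. A second WT peak, 2609 bp upstream of Cyp2d22 (3.73-fold), lay in both windows too, so these genes shared their WT calls. Cyp2d11 also had a promoter peak at 3 d and at 7 d. Cyp2d26 had a site near its start at 3 d and at 7 d (4.15-fold and 5.68-fold), and at 3 d also a separate peak with its summit 2008 bp upstream (5.46-fold). Promoter peaks were listed for Cyp2d40 at 3 d alone (6.07-fold), and no peak was listed for Cyp2d34. In the Cyp3a cluster on chromosome 5, promoter peaks were listed 173 bp upstream of Cyp3a25 at 3 d and 116 bp at 7 d (11.2-fold and 10.1-fold), and 97 and 122 bp upstream of Cyp3a59 (8.18-fold and 9.21-fold). Cyp3a16 was the 1 gene of this cluster with a peak in WT livers, in its 3' flank (5.45-fold, 12.2-fold and 7.64-fold), and Cyp3a57 had none. Promoter peaks thus stood at several members of each cluster, not at 1 gene alone.

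On chromosome 7, where Cyp2a, Cyp2b and single Cyp2 genes alternate, the strongest 7 d peaks of Cyp2b9 and Cyp2b13 lay at almost the same distance from their starts, 1196 and 1166 bp upstream (12.5-fold and 14.8-fold). These promoters are partly duplicated, with 66.7% and 48.3% of single-copy stretches, so reads may be divided between them and the calls are uncertain. Cyp2g1, an olfactory enzyme by its known expression, had a promoter peak of 10.3-fold at 3 d and 8.25-fold at 7 d. Cyp2f2, which activates naphthalene, had its promoter peak at 3 d alone (5.92-fold). Cyp2c39 in the Cyp2c cluster had a peak 4395 bp upstream of its start in WT livers (4.25-fold) and its strongest at the start itself at 3 d (14.6-fold), and Cyp2c67 was bound 42 and 34 bp upstream of its start at 3 d and 7 d (8.95-fold and 11.9-fold).

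**Figure D4:**
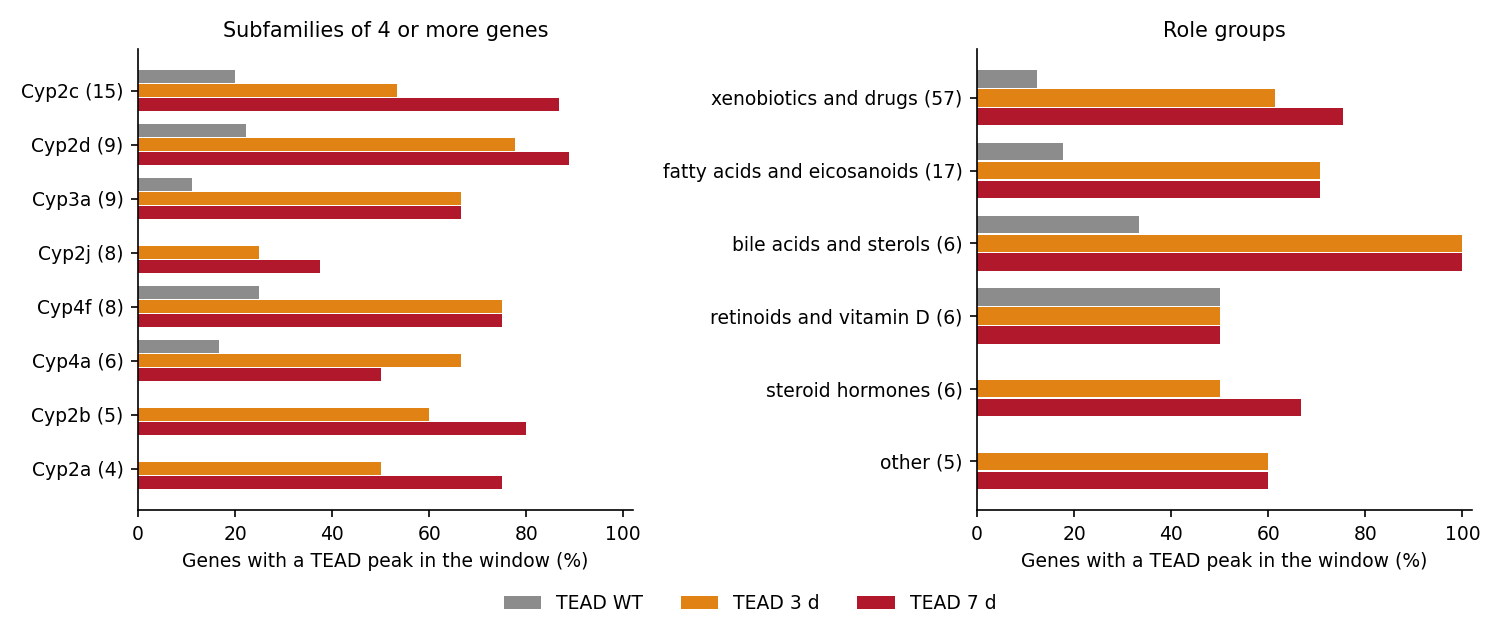
Share of genes with a TEAD peak in the window (%) in WT livers (grey), at 3 d (orange) and at 7 d (red), for subfamilies of 4 or more genes (left) and for role groups (right), with the number of genes in brackets. Cyp2c climbs from 3 to 13 of 15 genes, Cyp2j reaches 3 of 8, and all 6 bile acid and sterol genes are bound at 3 d and 7 d. The shares of all other protein-coding genes, not drawn, are 20.2%, 58.8% and 59.6%.

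The 6 steroid hormone genes had no TEAD peak in WT livers, and 3 and 4 of them had one at 3 d and 7 d. Of the other protein-coding genes, 20.2%, 58.8% and 59.6% had one, so the share rose after induction there as well. Cyp17a1, the 17-alpha-hydroxylase, had 4 peaks at 3 d and 4 at 7 d, with a maximum of 11.4-fold and 15.7-fold. That strongest peak lay inside the gene and reached the promoter stretch of a start annotated within the gene. The peak at the outermost start was weaker, at rank 7566 at 3 d and 32535 at 7 d, against 4390 and 6141 for the strongest. In contrast Cyp11a1 and Cyp11b1, enzymes of the adrenal gland and gonads, had none. Among the remaining genes, Cyp2u1, a fatty acid hydroxylase, held the strongest P450 peak at 3 d, in an intron (19.6-fold, 29.4-fold at 7 d). Cyp1b1 and Cyp2s1 had no peak in any list. The genes of the Cyp2d, Cyp3a, Cyp2a and Cyp2b clusters named above for single sites, the steroid hormone genes, the genes named for having no peak and those named for a single time class were chosen after their values were seen.

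Sequence duplication can make peak calls uncertain, since reads that match several copies cannot be placed with certainty. The study's methods do not state how such reads were handled. The share of 51-base stretches that occur once in the genome had a median of 96.7% over P450 promoters and 98.3% over those of other genes, and fell below 50% at 5 P450 promoters (5.15%, against 5.11%). Both copies of Cyp3a41, Cyp3a41a and Cyp3a41b, had the lowest value, 25%, and no peak. Among promoters with at least 90% of single-copy stretches, TEAD peaks marked 10.3%, 42.6% and 47.1% of 68 P450 genes and 9.75%, 43.3% and 41.8% of the others. Among those with 50 to 90%, they marked 0%, 33.3% and 33.3% of 24 P450 genes and 3.76%, 17.7% and 17.8% of the others. Of the 5 P450 promoters below 50%, 0, 1 and 1 had a TEAD peak. Over P450 windows the median share was lower, at 86.1% (lower quartile 77.3%). It was not computed for windows of other genes, so a difference from them was not tested. TEAD peaks marked 7, 32 and 38 of the 53 P450 windows with 50 to 90%, and 8, 30 and 33 of the 42 with at least 90%. At 3 d these are 60.4% and 71.4%, and at 7 d 71.7% and 78.6%. The 8 Cyp2j genes had a median of 83.5% over their windows, above the 79.8% of the Cyp2c genes.

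The TEAD core was looked for in the 300 bp around each summit. It was present in 8 of the 15 P450 peaks of the WT list (53.3%, 30.1 to 75.2%), against 53.5% of its other peaks. At 3 d it was present in 44 of 153 (28.8%, 22.2 to 36.4%), against 34.6%, and at 7 d in 58 of 159 (36.5%, 29.4 to 44.2%), against 39%. By comparison, 12.4% of windows of this length at the starts of all protein-coding genes held it. In each list the share among other peaks lay within the interval of the P450 share. Of the P450 peaks at 7 d, those that overlapped a WT peak held it in 9 of 14 cases (64.3%, 38.8 to 83.7%) and the rest in 49 of 145 (33.8%, 26.6 to 41.8%), and at 3 d the shares were 8 of 14 and 36 of 139. This split was not made for the other peaks of the lists, so it cannot be read as particular to P450 sites. Of the 10 strongest P450 peaks, 5 held the core at 3 d and 3 at 7 d, and of the 3 YAP peaks only that at Cyp2r1 did (33.3%, 6.15 to 79.2%, against 64.5% of the other 1453 YAP peaks at 7 d). A match is a string of letters and not a measured site.

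The partners and regulators of the P450 enzymes were counted in the same way. Of the 6 electron donors listed, 5 had a record under that symbol. TEAD peaks marked the promoter of 1 of these 5 in WT livers (Fdxr, ferredoxin reductase) and of all 5 at 3 d and at 7 d. Por, the reductase that serves the microsomal P450 enzymes, had 12 TEAD peaks at 3 d and 8 at 7 d and none in WT livers. Of the 12 transcription factors that control P450 genes, 7 had a TEAD peak in their window in the WT list, 3 of them at the promoter, and all 12 had a promoter peak at 3 d and at 7 d. Hnf4a, which drives many liver genes, had 0, 10 and 12 TEAD peaks, and Nr1i2 and Nr1i3, the xenobiotic receptors PXR and CAR, had 1, 12 and 11 and 2, 7 and 5. A YAP peak was listed at 7 d at 1 of the 12, Nr1h4, the bile acid receptor FXR, away from its promoter. These are short lists of genes known for their activity in liver, and their counts stand beside the background shares of 8.73%, 38.8% and 37.6% of promoters and of 20.2%, 58.8% and 59.6% of windows given above.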

How the data were processed

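Chromatin from 19 mouse liver samples in 6 groups had been immunoprecipitated and sequenced. Per the labels and the study's methods, the authors aligned reads to mm9 with BWA 0.6.2, merged replicates and called peaks with MACS2 2.0.9. Per the file headers, the p-value cutoff was 1e-05 with tags of 51 bp and a control of 167176362 tags, from earlier published data, for all lists. The deposited pileup is a signal (fragments over the summit), the deposited fold enrichment is its ratio to local background, and the authors' −log10 p-value and q-value are the caller's. Fragment length was 250 bp for YAP lists. All values per peak are the authors'.

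Peaks were overlapped (at least 1 bp) with GENCODE genes of NCBIM37, and ranked by −log10 p-value. The overlap code was tested on simulated data. No peak ended beyond its chromosome. Peaks on unplaced sequences (24 of 156 for YAP in WT livers and 19 of 110 at 3 d) were left out of the motif search. They stayed in list sizes, ranks and whole-list values. Shares have 95% Wilson intervals and densities Poisson intervals, which cover counting error only. Single-copy sequence was sampled as 51-base stretches every 50 bp. Scripts used Python 3.11.15, pandas 2.3.3 and scipy 1.17.1. Named genes were all with a YAP peak, owners of the 10 strongest peaks of each TEAD list, up to 15 with a TEAD promoter peak in WT livers, and 16 listed by function. Members and lists were chosen with earlier results of these data known. Alternatives covered windows, promoter limits, peak filters, narrowed peaks and equal list sizes.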

Additional observations from a re-analysis of the deposited data

How the results depend on the processing

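Of 131 recomputed counts, ratios and shares, 101 stayed within 1.5 times or within the interval of the value given above. The others follow, in list order. Gene bodies alone gave 1 gene for YAP at 7 d and 7, 41 and 44 genes for TEAD, merged gene bodies density ratios of 0.541, 1.11 and 1.18, and merging gene bodies up to 100 kb apart 28 and 27 loci with TEAD peaks at 3 d and 7 d. With 50 kb on either side, YAP at 7 d marked 8 genes and TEAD in WT livers 33. At least 5-fold enrichment left 8 genes and 3 promoters for TEAD in WT livers, and a stricter p-value (−log10 of 10 or above) kept 4 promoters. The strongest 5695 peaks gave 22 and 12 genes and 10 and 4 promoters at 3 d and 7 d, and a density ratio at 7 d of 0.907. For genes with TEAD peaks in all 3 lists, at 3 d and 7 d, at 3 d alone, at 7 d alone and in none, they gave 8, 3, 6, 1 and 72 genes, while promoter peaks gave 7, 28, 3, 6 and 53. Windows of 100 bp held the TEAD core in 20.9% and 23.9% of P450 peaks at 3 d and 7 d.

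The P450 share minus that of other genes, in percentage points, turned negative with gene bodies alone at 3 d (-1.41), with the strongest peaks at 7 d (-5.76, and -1.84 at promoters) and with promoters of 1000 bp on either side (-4.47 at 3 d, -2.95 at 7 d). Leaving out peaks at other genes' promoters or the -ps symbols was chosen after seeing the data and changed no count by over 1.5 times. No paired analysis was possible because each list stands for a merged group, and for the same reason no sample could be left out. The number of peaks in a list limits all counts. Depth differed between the lists and fragment length between the TEAD lists, and their part in the number of peaks was not tested.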
